A study of Homo sapiens with 8 samples.

Results

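Fc gamma receptors and the costimulatory molecules of antigen-presenting cells were examined in 2 acute myeloid leukaemia lines in which METTL14 was lowered. The genes were taken by symbol from a list of these molecules: FCGR1A, FCGR2A, FCGR2B, FCGR3A, FCER1G, FCGRT, CD86, CD80 and CD40. All 9 were found among the 16726 genes listed for each line. METTL14 encodes the partner of METTL3 in the complex that places N6-methyladenosine on RNA. NB4 is an established promyelocytic leukaemia line, and MM6 (MonoMac 6) is an established monocytic one; the tumour label is acute monocytic leukemia in every library. The 4 groups were NB4 shNS, NB4 shM14, MM6 shNS and MM6 shM14. Here shNS is the non-specific control hairpin, shM14 is 1 hairpin against METTL14 (labelled shM14-#2), and 2 libraries were made per group. All groups carried a lentiviral pLKO.1 hairpin and had been kept in 0.5 µg/mL puromycin for 2 passages. The labels do not say whether the libraries of a group came from separate cultures, so the spread behind each p-value may be technical.

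Fc gamma receptors bind the constant part of immunoglobulin G on antibody-coated targets. The activating receptors FCGR1A (CD64) and FCGR3A (CD16a) signal through the common gamma chain FCER1G, FCGR2A (CD32a) carries its own activating motif, and FCGR2B (CD32b) carries an inhibitory one. FCGRT, the heavy chain of the neonatal Fc receptor, salvages immunoglobulin G from degradation rather than triggering phagocytosis. CD80 and CD86 are the ligands of CD28 and CTLA4 on T cells, and CD40 receives the T cell signal CD40LG. In the myeloid lineage these receptors and ligands are known as markers of mononuclear phagocytes.

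FCGR2A, FCGR3A and FCGR2B lie together on chromosome 1, while FCGR1A lies elsewhere on it and FCGRT lies on chromosome 19. In the RefSeq order of the genes that the files also list, FCGR2A was followed by HSPA6, FCGR3A, FCGR2C, HSPA7, FCGR3B, FCGR2B, FCRLA and FCRLB. RefSeq promoter windows of GRCh38.p14 were available for 8 of the 9 genes, and the 250 bases before each start are described here. FCGR1A and FCGR2A shared an identical stretch of 20 bases there, starting 52 and 51 bases before the start, and no other of 35116 windows held it on either strand. The stretch contains the letters GAGGAA on the reverse strand, a PU box of the kind that the myeloid factor PU.1 is known to bind. The windows of these genes and the first of 2 windows of CD86 are shown because they hold a PU box and their transcripts lay higher with shM14 in both lines. The windows of FCER1G and CD80, whose transcripts also lay higher in both, hold none and are not shown. Capitals mark a PU box (GAGGAA, either strand) or an interferon gamma activated site (GAS, TTCNNNGAA).
Shared stretch of FCGR1A and FCGR2A: atttccTTCCTCttttctaa
FCGR1A, chr1:149782444-149782693, plus strand: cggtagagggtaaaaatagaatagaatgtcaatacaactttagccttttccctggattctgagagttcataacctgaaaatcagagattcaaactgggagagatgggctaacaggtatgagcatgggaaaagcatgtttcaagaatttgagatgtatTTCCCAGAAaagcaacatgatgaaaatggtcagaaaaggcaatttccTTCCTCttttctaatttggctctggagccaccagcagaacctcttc
FCGR2A, chr1:161505207-161505456, plus strand: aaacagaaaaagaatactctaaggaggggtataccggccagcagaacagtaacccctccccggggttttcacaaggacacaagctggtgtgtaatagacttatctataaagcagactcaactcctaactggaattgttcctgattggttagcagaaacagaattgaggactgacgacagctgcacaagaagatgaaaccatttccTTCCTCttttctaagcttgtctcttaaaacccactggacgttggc
CD86, chr3:122055112-122055361, plus strand: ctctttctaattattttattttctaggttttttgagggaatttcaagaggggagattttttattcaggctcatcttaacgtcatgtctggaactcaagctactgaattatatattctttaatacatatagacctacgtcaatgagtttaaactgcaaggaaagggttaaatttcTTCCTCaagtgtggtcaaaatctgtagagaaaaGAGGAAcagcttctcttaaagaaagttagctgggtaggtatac

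The FCGR1A window held 1 PU box, 46 bases before the start, and 1 GAS match, 93 bases before it. FCGR2A held 1 PU box at 45 bases, and the CD86 window held 2, at 76 and 43 bases. In all, 4 of the 8 genes had a PU box in a window, the other being FCGR2B in its second window. Counted by window this was 4 of 14 (28.6%), near the 23.57% of all 35116 windows. GAS matches stood in 6.567% of all windows, and no window of FCER1G, CD80 or FCGRT held either. FCGR2B also had 2 GAS matches in its second window. Of the other letters searched on both strands, the interferon response core GAAANNGAA (6.88% of windows) stood in a window of FCGR2A, FCGR2B, FCGR3A and FCGRT, and the AP-1 letters TGANTCA (6.573%) in one of FCGR2B. The next longest stretch shared by windows of different genes was 12 bases, between FCGR3A and CD86. These matches describe letters, the motifs were chosen with the windows in view, and binding was not measured.

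Each library held 23272126 to 28814911 reads over the listed genes, recovered exactly from the deposited values. Levels are given in RPKM (reads scaled by gene length in kilobases and by library depth), and changes as differences in log2(RPKM + 1), shM14 minus shNS, which understate the change of genes near or under 1 RPKM. METTL14 itself stood at 14.1 and 12.5 RPKM in NB4 shNS and 8.35 and 8.35 in NB4 shM14. In MM6 it stood at 12.5 and 13.4 RPKM in shNS and 6.54 and 6.55 in shM14, so the mean with shM14 was 0.629 of the control in NB4 and 0.506 of it in MM6. Replicates lay further apart in MM6: over the tested genes the SD of the difference between 2 replicates was 0.35 and 0.38 in the MM6 groups and 0.15 and 0.13 in the NB4 groups. Monocyte markers moved with the hairpin: the summed RPKM of the 12 markers went from 56.5 to 60.5 in NB4 shNS to 149 to 151 in NB4 shM14, and from 10283 to 15630 in MM6 shNS to 16319 to 26353 in MM6 shM14. LYZ made most of the NB4 rise (19.8 and 21.4 RPKM to 83.4 and 84.6), and in MM6, where LYZ, S100A8 and S100A9 made nearly all of the sum, LYZ overlapped between the hairpins (9206 and 5836 in shNS, 14301 and 8164 in shM14). In NB4, 6 of the 8 tested monocyte markers rose, against 22.1% of all genes. The defining marker CD14 was too low to be tested there, under 1 RPKM throughout. Its level was 0.111 and 0.105 RPKM in NB4 shNS and 0.977 and 0.699 in NB4 shM14. In MM6 none of 11 markers passed with limma (8 at an unadjusted p under 0.05, 1 called by voom), and FCN1 was at 0 in both shNS libraries. Among the 8 was CX3CR1, at 0.275 and 0.315 RPKM in MM6 shNS and 2.42 and 3.37 in MM6 shM14. CX3CR1 passed the filter only through the shM14 libraries and so had to differ. The promyelocyte markers moved too in NB4, where 5 of 8 fell and 1 rose: CTSG stood at 41.9 and 44.9 RPKM in shNS and 6.73 and 6.85 in shM14 (log2 change -2.51, limma adjusted p = 9.4e-05), and PRTN3 at 46.1 and 44.1 and at 127 and 129 (1.48, limma adjusted p = 0.00016). The others that fell were CEBPE (-0.30), AZU1 (-0.26), MPO (-0.20) and MS4A3 (-0.17). ELANE in NB4 differed by replicate number, at 0.0462 and 0.0387 RPKM in the first libraries of shNS and shM14 and 6.83 and 6.45 in the second. Of 4 T cell markers, CD3D rose in NB4 from at most 46.9 RPKM in shNS to 60.6 and 58.5 in shM14 (0.37, limma adjusted p = 0.0046) and CD8A fell by 0.37 (limma adjusted p = 0.027). The 4 NK, 5 B and 2 dendritic cell markers in the files, of cells that share some of these receptors, were mostly under 1 RPKM; NKG7 (30.0 to 139), CD79B (2.09 to 11.6) and NCAM1 in NB4 (2.01 to 3.49) were above it. The part of these shifts in the receptor values was not tested. In these bulk samples, fewer cells of a type and less RNA per cell cannot be told apart.

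The activating receptors FCGR1A and FCGR2A and the signalling chain FCER1G rose in NB4 with METTL14 knockdown, by 1.77-fold to 2.00-fold. FCGR1A, the high affinity receptor, stood at 2.26 and 2.28 RPKM in NB4 shNS and at 4.11 and 3.93 in NB4 shM14. Both shM14 libraries lay above both controls, and the log2 change was 0.62 (SE 0.05, limma adjusted p = 0.00099, n = 2 per group). In MM6 it stood at 5.11 and 6.12 RPKM in shNS and at 7.84 and 10.2 in shM14, again without overlap. The MM6 log2 change was 0.60 (SE 0.18), nearly the size seen in NB4, with a limma adjusted p of 0.23 that missed the threshold of 0.05.

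FCGR2A, the low affinity activating receptor, stood at 7.56 and 7.51 RPKM in NB4 shNS and at 13.9 and 14.4 in NB4 shM14. The groups were far apart for so small a replicate spread, with a log2 change of 0.82 (SE 0.05, limma adjusted p = 0.00052). MM6 held less of it, 3.71 and 3.90 RPKM in shNS and 5.73 and 5.94 in shM14. There the groups did not overlap either, and the log2 change was 0.51 (SE 0.13, limma adjusted p = 0.18). The ratio of FCGR1A to FCGR2A in a library differed between the lines more than between the hairpins: it was 0.299 and 0.304 in NB4 shNS, 0.296 and 0.274 in NB4 shM14, 1.38 and 1.57 in MM6 shNS, and 1.37 and 1.72 in MM6 shM14. The hairpin groups overlapped in MM6, and in NB4 both shM14 ratios lay just below both controls.

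FCER1G, the common gamma chain on which FCGR1A depends, was among the most abundant of these transcripts. It stood at 26.7 and 23.0 RPKM in NB4 shNS and at 51.1 and 48.1 in NB4 shM14, a log2 change of 0.97 (SE 0.08, limma adjusted p = 0.0013). In MM6 it stood at 25.4 and 29.0 RPKM in shNS and at 77.2 and 59.2 in shM14. The MM6 groups did not overlap, and the mean was 2.51-fold higher, with a log2 change of 1.29 (SE 0.18, limma adjusted p = 0.084). The control means were 24.8 RPKM in NB4 and 27.2 in MM6. FCER1G exceeded FCGR1A 10.1-fold to 12.5-fold in all NB4 libraries; in MM6 the ratio was 4.97 and 4.74 in shNS and 9.84 and 5.79 in shM14.

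**Figure D1:**
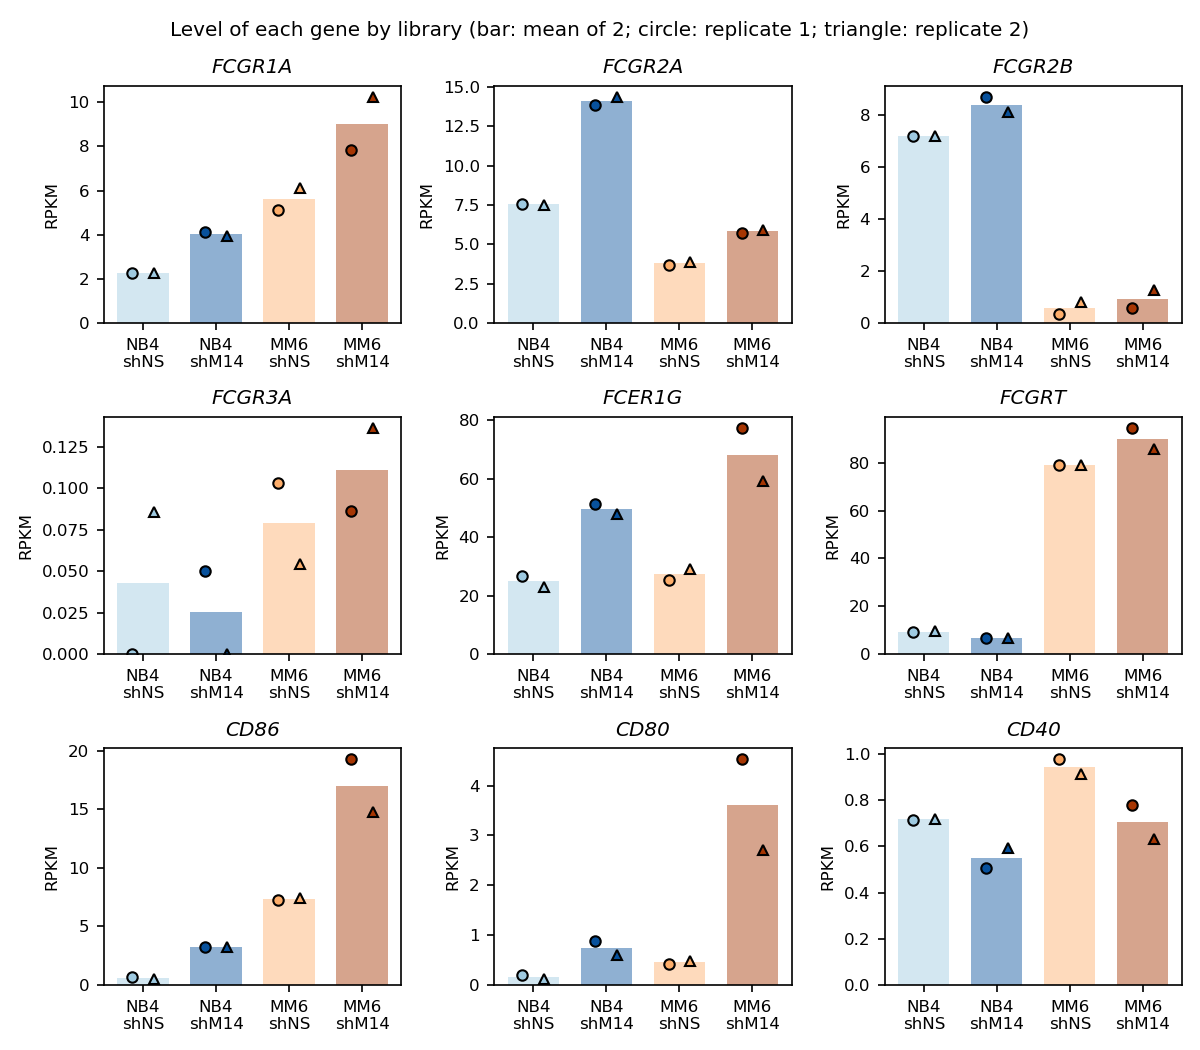
RPKM of each of the 9 genes in the 8 libraries, 1 panel per gene with its own linear axis from 0; bars are means of 2 libraries, circles replicate 1 and triangles replicate 2. FCGR1A, FCGR2A, FCER1G, CD86 and CD80 lie higher with shM14 in both lines, FCGRT falls in NB4 from 9.33 to 6.75 RPKM on average, and FCGR3A stays under 0.14 RPKM in every library.

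The inhibitory receptor moved little in NB4. FCGR2B stood at 7.20 and 7.21 RPKM in NB4 shNS and at 8.70 and 8.12 in NB4 shM14, a mean increase of 1.17-fold. Its log2 change of 0.20 (SE 0.05) passed with a limma adjusted p of 0.030. That call was lost without any single NB4 library (adjusted p 0.067 to 0.19) and in the model of all 8 libraries (adjusted p 0.55). As FCGR2A rose more, the ratio of FCGR2A to FCGR2B in a library went from 1.05 and 1.04 in NB4 shNS to 1.60 and 1.77 in NB4 shM14. In MM6, FCGR2B was a low transcript of 20 to 71 reads, at 0.347 and 0.810 RPKM in shNS and 0.566 and 1.26 in shM14. The MM6 groups overlapped, and the gene was under the filter of 1 RPKM in 2 libraries, so it had no main test there. Without the filter its log2 change was 0.27 (SE 0.27, limma adjusted p = 0.75). Voom on the recovered reads, without a filter, gave 0.61 (SE 0.56, adjusted p = 0.71). The MM6 mean was 1.58-fold higher with shM14, a change measured too imprecisely to call small or large. The MM6 ratio of FCGR2A to FCGR2B spanned 4.82 to 10.7 in shNS and 4.70 to 10.1 in shM14.

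FCGR3A, the activating receptor typical of NK cells and of non-classical monocytes, was close to absent, with 0 to 9 reads per library. The highest level was 0.136 RPKM (exact Poisson 95% interval 0.0622 to 0.258, covering counting error only), in 1 MM6 shM14 library. In the NB4 libraries without a read, the same interval reached 0.0554 RPKM in shNS replicate 1 and 0.0523 in shM14 replicate 2. There 3 reads would have stood at 0.0451 and 0.0425 RPKM. A change in FCGR3A was not detectable at this depth.

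Near-identical copies of these receptors are listed too, and 50-base reads may be divided among them. Each value of FCGR1A, FCGR2A, FCGR2B and FCGR3A, and each ratio of them, is thus uncertain by its copy. FCGR2C, the copy close to FCGR2B and in part to FCGR2A, stood at 1.96 and 2.36 RPKM in NB4 shNS and 1.77 and 1.57 in NB4 shM14. It was lower where FCGR2B was higher, with a log2 change of -0.24 (SE 0.08, limma adjusted p = 0.057). In MM6 it was under 0.23 RPKM. FCGR1B lay higher with shM14 in NB4, at 0.717 and 0.638 RPKM in shNS and 1.01 and 0.894 in shM14, and between 1.82 and 2.97 in MM6, where shNS and shM14 overlapped, and FCGR1C between 0.160 and 0.755 in NB4 and between 0.840 and 1.49 in MM6. FCGR3B stayed under 0.1 RPKM throughout.

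FCGRT, the salvage receptor, fell in NB4. It stood at 9.14 and 9.53 RPKM in NB4 shNS and at 6.76 and 6.74 in NB4 shM14, without overlap (log2 change -0.41, SE 0.05, limma adjusted p = 0.0027). In MM6 it was an abundant transcript, at 78.9 and 79.2 RPKM in shNS and 94.5 and 85.7 in shM14. The MM6 groups did not overlap either, and the log2 change was 0.18 (SE 0.13, limma adjusted p = 0.61). The response in MM6 minus that in NB4 was 0.60 (95% interval 0.33 to 0.87, SE 0.11, limma adjusted p = 0.047), and FCGRT was the only gene of the 7 tested whose response differed between the lines at the threshold. Of all 12804 genes in that fit, 2.92% did. The FCGRT difference kept its sign in all alternatives, but its adjusted p was above 0.05 with a pseudocount of 0.1 (0.068), with median-of-ratios scaling (0.078), with voom on the recovered reads (0.069, and 0.08 without the filter) and without each library except MM6 shM14 replicate 2 (0.052 to 0.25). B2M, the light chain with which FCGRT pairs, fell in NB4 from 1982 and 1946 RPKM to 1533 and 1539 (log2 change -0.35, SE 0.04, limma adjusted p = 0.0036), a call lost in the model of all 8 libraries (adjusted p 0.074). In MM6 it stood at 1825 and 2264 RPKM in shNS and 1676 and 1606 in shM14, with a limma adjusted p of 0.44.

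**Figure D2:**
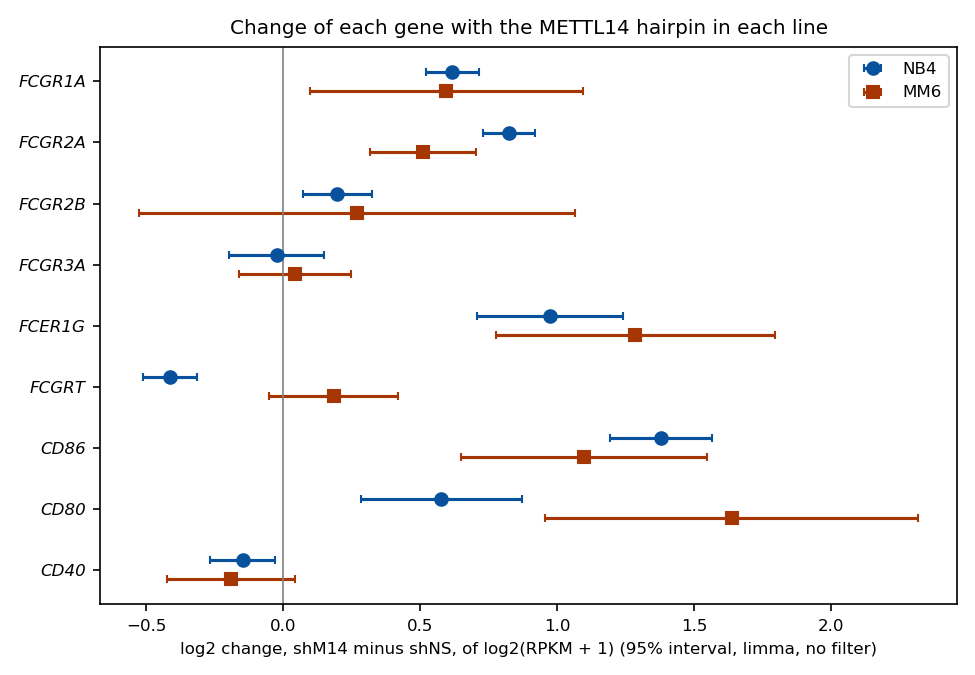
Change of the 9 genes on the log2(RPKM + 1) scale, shM14 minus shNS, with 95% intervals from limma without a filter (circles NB4, squares MM6, 2 libraries per group). The NB4 interval is the narrower one for each gene, and the FCGRT point lies below 0 in NB4 and above 0 in MM6.

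The B7 ligands CD86 and CD80 lay higher with shM14 in every library of both lines. CD86 stood at 0.716 and 0.546 RPKM in NB4 shNS, from 49 and 46 reads, and at 3.23 and 3.24 in NB4 shM14. With shM14, CD86 was 5.12-fold higher on average. Its log2 change was 1.38 (SE 0.06, limma adjusted p = 0.00038), but it passed the filter only through the shM14 libraries and so had to differ; without the filter the adjusted p was 0.0057. In MM6, CD86 stood at 7.28 and 7.45 RPKM in shNS and at 19.3 and 14.8 in shM14, 2.31-fold higher. The MM6 groups were well apart, with a log2 change of 1.10 (SE 0.17, limma adjusted p = 0.092).

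CD80 was scarce in the controls. It stood at 0.201 and 0.126 RPKM in NB4 shNS, from 13 and 10 reads, and at 0.881 and 0.599 in NB4 shM14, from 68 and 41 reads. Under the filter it had no main test in NB4; without the filter the log2 change was 0.58 (SE 0.10, limma adjusted p = 0.031), and with voom on the recovered reads, which adds no RPKM of 1, it was 2.19 (adjusted p = 0.00067). In MM6 it stood at 0.426 and 0.487 RPKM in shNS and at 4.53 and 2.71 in shM14, 7.92-fold higher on average. That log2 change was 1.64 (SE 0.22, limma adjusted p = 0.078), and CD80 too passed the MM6 filter only through the shM14 libraries. The balance of the ligands shifted in MM6, where CD86 exceeded CD80 17.1-fold and 15.3-fold in shNS but 4.26-fold and 5.45-fold in shM14. In NB4 this ratio was 3.56 and 4.34 in shNS and 3.66 and 5.41 in shM14, with overlap. The difference between lines in the CD80 change was 1.06 (SE 0.26, limma adjusted p = 0.086), short of the threshold.

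CD40 was a low transcript in both lines. It stood at 0.713 and 0.720 RPKM in NB4 shNS and 0.506 and 0.591 in NB4 shM14, and at 0.976 and 0.912 in MM6 shNS and 0.780 and 0.630 in MM6 shM14. In both lines both shM14 libraries were the lower ones, on 28 to 47 reads per library. Under the filter it had no main test; without the filter the log2 change was -0.15 (limma adjusted p = 0.074) in NB4 and -0.19 (limma adjusted p = 0.41) in MM6.

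**Figure D3:**
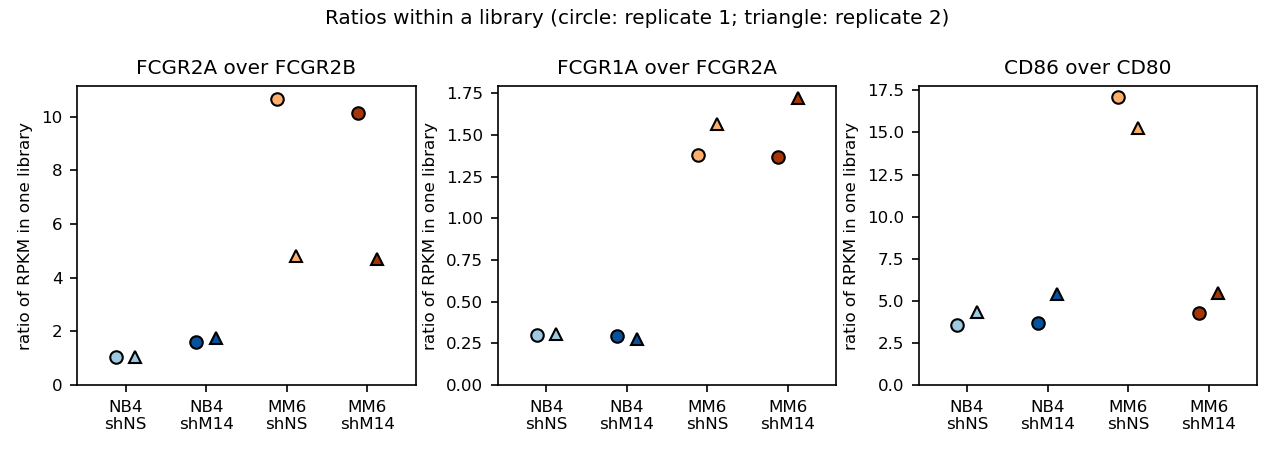
Ratio of RPKM values within each library for 3 gene pairs, on linear axes from 0 (circles replicate 1, triangles replicate 2). FCGR2A gains on FCGR2B in NB4 shM14, FCGR1A over FCGR2A lies between 0.274 and 0.304 in NB4 and between 1.37 and 1.72 in MM6, and CD86 over CD80 drops from 17.1 and 15.3 in MM6 shNS to 4.26 and 5.45 in MM6 shM14; the MM6 values of FCGR2A over FCGR2B rest on 20 to 71 FCGR2B reads.

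Of the 9 genes, 6 passed the filter in NB4, where 5 rose and FCGRT fell. Of all 11531 tested genes 22.1% were called higher and 25.2% lower; since CD86 passed the filter only through shM14, the count of 5 is a description. Without a filter all 9 could be tested in NB4: 6 were called higher, with CD80 added, against 13.3% of all 16726 genes, and their median log2 change was 0.58 against -0.01 over all genes. In MM6, limma called none of the 6 genes past the filter at the adjusted threshold, where 0.0757% of 11895 genes were called in either direction, although 5 of the 6 had an unadjusted p under 0.05. Voom on the recovered reads called none of them either, whereas the model of all 8 libraries, which pools the replicate spread of both lines, called 5 (FCGR1A, FCGR2A, FCER1G, CD86 and CD80, the last having passed the filter only through shM14). Without a filter the median log2 change of the 9 genes in MM6 was 0.51 against -0.01 over all genes. Counting libraries alone, both shM14 libraries lay above both controls for 6 of 9 genes in NB4 (30.7% of all listed genes) and for 6 of 9 in MM6 (18.7% of all listed genes). An exact permutation test of 2 libraries against 2 cannot give a two-sided p under 0.333.

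In the authors' deposited table, 6 of the 9 genes were higher and 1 lower in NB4 at an adjusted p under 0.05, with 22.1% of all genes higher. For MM6 the authors' deposited table called 3 of them higher, with 1.58% of all genes higher: FCER1G (log2 fold change 1.37, adjusted p = 3.6e-05), CD80 (3.04, adjusted p = 5.5e-10) and CD86 (1.26, adjusted p = 0.00018). FCGR1A and FCGR2A in MM6 had adjusted p of 0.16 and 0.26 in the authors' deposited table.

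Taking both lines in 1 additive model, 5 of the 7 genes tested rose, of which CD80 passed the filter only through the MM6 shM14 libraries: CD86 by 1.24 (SE 0.10, limma adjusted p = 0.0015), FCER1G by 1.13 (SE 0.11, limma adjusted p = 0.0028), CD80 by 1.11 (SE 0.22, limma adjusted p = 0.019), FCGR2A by 0.67 (SE 0.08, limma adjusted p = 0.0038) and FCGR1A by 0.61 (SE 0.09, limma adjusted p = 0.0078). In that fit 4.80% of all 12804 genes were called higher. FCGR2B (log2 change 0.23, limma adjusted p = 0.28) and FCGRT (-0.12, limma adjusted p = 0.58) did not pass. Without a filter 5 of all 9 were called higher, against 3.78% of all genes. The CD80 call was lost without NB4 shM14 replicate 1 (adjusted p 0.051), and the other 4 calls held in every alternative.

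The lines differed in their receptor repertoire before any knockdown. Between the control groups, MM6 minus NB4, FCGRT was higher in MM6 by 2.95 (SE 0.08, limma adjusted p = 2.3e-05), CD86 by 2.36 (SE 0.10, limma adjusted p = 5.1e-05) and FCGR1A by 1.01 (SE 0.11, limma adjusted p = 0.00081). FCGR2B was lower in MM6 by 2.39 (log2 difference -2.39, SE 0.16, limma adjusted p = 0.00018), as was FCGR2A (-0.83, SE 0.08, limma adjusted p = 0.00070). FCER1G did not pass, at 0.13 (95% interval -0.18 to 0.44, limma adjusted p = 0.37). CD86 passed the filter of this fit only through the MM6 controls and FCGR2B only through the NB4 controls, so both had to differ; without the filter their adjusted p was 0.00021 and 0.00075. Among all 12450 genes of this fit, 34.3% were higher and 36.8% lower in MM6, so 3 higher and 2 lower of 6 is near the general share. The tables were normalised separately, and these differences set RPKM values side by side across them. The knockdown raised CD86 in NB4 to 3.24 RPKM at most, still under the 7.28 of the lower MM6 control.

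By level per length, the order in NB4 shNS ran FCER1G, FCGRT, FCGR2A, FCGR2B, FCGR1A, CD40, CD86, CD80 and FCGR3A, with overlap only between CD40 and CD86. In NB4 shM14 it ran FCER1G, FCGR2A, FCGR2B, FCGRT, FCGR1A, CD86, CD80, CD40 and FCGR3A, with no overlap between neighbours. In MM6 shNS the order ran FCGRT, FCER1G, CD86, FCGR1A, FCGR2A, CD40, FCGR2B, CD80 and FCGR3A, with overlap between FCGR2B and CD80. In MM6 shM14, CD80 stood in the sixth place, ahead of FCGR2B and CD40, which overlapped. CD86 thus held the third place in MM6 and at best the sixth in NB4.

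The genes whose log2(RPKM + 1) over the 8 libraries was most like that of each receptor were found among 8176 candidates, as a description in which the difference between lines weighs heavily. CD86 was most like LYN (r = 0.996), a Src-family kinase that phosphorylates activating Fc receptors, and ATP13A3 (r = 0.995). CD80 was most like CLEC7A (r = 0.993), the beta-glucan receptor of phagocytes, and ACOX2 (r = 0.988). FCER1G was most like LBR (r = 0.984) and RGL1 (r = 0.981), FCGR1A like CRYBB2P1 (r = 0.995) and PFDN2 (r = 0.994), and FCGR2A like SLC25A4 and WIPF2 (both r = 0.997). FCGRT, whose level differs mainly by line, was most like MCEMP1 and APOE (both r = 0.999), and FCGR2B like AMMECR1L and PRPS1 (both r = 0.999). Among the receptors themselves, FCGR1A and CD86 were the most alike (r = 0.970), and FCGR2B and FCGRT the most opposed (r = -0.984).

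Downstream of the receptors, 43 genes of Fc receptor signalling were followed. In NB4, 20 of the 41 tested rose, 9 fell and 12 did not pass, where 22.1% of all genes rose and 25.2% fell, with a median log2 change of 0.18 against -0.01 over all genes. The Src-family kinases, which phosphorylate the activating motif, did not all move alike. LYN went from 19.3 and 18.7 RPKM to 37.5 and 36.9 (log2 change 0.93, limma adjusted p = 0.00042) and SRC from 0.403 and 0.450 to 1.93 and 2.09 (1.08, limma adjusted p = 0.00041). FYN, of the same family and named after its value was seen, fell in NB4 (log2 change -0.23, limma adjusted p = 0.016). SRC and DOK2 (0.748 and 0.941 RPKM in NB4 shNS, 1.31 and 1.43 in NB4 shM14) passed the filter only through the shM14 libraries. Both had to differ and are among the 20 that rose, so that count is a description. SYK, the kinase docking on the phosphorylated motif, and INPP5D, the phosphatase SHIP1 that FCGR2B recruits, were singled out after their values were seen. In NB4, SYK fell by 0.39 (limma adjusted p = 0.0043) and INPP5D fell by 0.42 (limma adjusted p = 0.0027), the latter call being lost in the model of all 8 libraries (adjusted p 0.15). In MM6 none of 42 passed with limma or voom (8 at an unadjusted p under 0.05), and the median was 0.08 against -0.03. There FGR, another Src-family kinase, stood at 22.1 and 22.5 RPKM in shNS and 66.5 and 46.3 in shM14 (log2 change 1.28, limma adjusted p = 0.096). PIK3R5, a regulatory subunit of phosphoinositide 3-kinase gamma, stood at 1.81 and 2.34 in shNS and at 5.72 and 4.83 in shM14 (1.03, limma adjusted p = 0.093).

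Of 12 other Fc receptor genes in the files, 6 were tested in NB4: 3 rose and 2 fell (22.1% and 25.2% of all genes did), with a median log2 change of -0.02 against -0.01 over all genes. FCRLA rose from 0.542 and 0.573 RPKM to 2.40 and 1.81 (log2 change 0.99, limma adjusted p = 0.0018) and FCRLB from 2.73 and 2.89 to 4.91 and 5.05 (0.65, limma adjusted p = 0.00096); these Fc receptor-like genes follow FCGR2B on the chromosome. FCRLA passed the filter only through shM14. TRIM21, the cytosolic antibody receptor, fell with B2M, from 23.4 and 22.8 to 14.2 and 15.8 RPKM (-0.59, limma adjusted p = 0.0024). The third that rose was FCAR, the receptor for immunoglobulin A, from 3.26 and 3.35 to 3.77 and 4.13 RPKM (0.20, limma adjusted p = 0.036), a call lost without any single NB4 library (adjusted p 0.063 to 0.21). In MM6 none of 6 passed with limma or voom (1 at an unadjusted p under 0.05), with a median of -0.10 against -0.03. FCER2 (CD23), the low affinity receptor for immunoglobulin E, was nearly silent in NB4, under 0.18 RPKM, and stood at 109 and 76.4 RPKM in MM6 shNS and at 186 and 144 in MM6 shM14 (log2 change 0.83, limma adjusted p = 0.20).

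Among 22 other costimulatory ligands and receptors in the files, 9 of 16 tested rose and 4 fell in NB4, where 22.1% of all genes rose and 25.2% fell, with a median of 0.18. CD48, a ligand of CD2 and CD244, rose from 8.73 and 9.18 RPKM to 21.05 and 20.04 in NB4 (log2 change 1.11, limma adjusted p = 0.00038). In MM6 CD48 stood at 3.82 and 3.27 in shNS and at 9.89 and 8.58 in shM14 (1.17, limma adjusted p = 0.073). LGALS9 (galectin-9) fell in NB4 from 14.8 and 15.5 to 6.47 and 5.93 RPKM (-1.17, limma adjusted p = 0.00043), and the butyrophilins BTN3A1 and BTN2A2 fell by 0.54 and by 0.33 (limma adjusted p = 0.0025 and 0.0062). The fourth that fell was C10orf54 (VISTA), by 0.23 (log2 change -0.23, limma adjusted p = 0.035), a call lost without NB4 shNS replicate 2 or either NB4 shM14 replicate (adjusted p 0.07 to 0.16). None of the 16 tested passed in MM6 with limma or voom (5 at an unadjusted p under 0.05), where the median was 0.14. CD70, the ligand of CD27, stood at 21.6 and 16.9 RPKM in MM6 shNS and at 44.3 and 48.4 in MM6 shM14 (1.24, limma adjusted p = 0.080). TNFRSF14 (HVEM) stood at 2.06 and 1.80 RPKM in MM6 shNS and at 1.01 and 0.663 in shM14 (-0.68, limma adjusted p = 0.16).

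For CD40 and CD28 signalling, 6 of 20 tested genes rose and 3 fell in NB4, where 22.1% of all genes rose and 25.2% fell, with a median of 0.04. The risers included the NF-kappaB subunits NFKB1 (29.7 and 29.7 to 44.6 and 45.8 RPKM; log2 change 0.59, limma adjusted p = 0.0010) and REL (0.50, limma adjusted p = 0.0021) and the kinase CHUK (0.45, limma adjusted p = 0.0018). The genes that fell were TRAF3IP3 (log2 change -0.31, limma adjusted p = 0.015), the adaptor TRAF5 (-0.31, limma adjusted p = 0.013) and the kinase IKBKB (-0.16, limma adjusted p = 0.045). The IKBKB call was lost without any single NB4 library (adjusted p 0.057 to 0.24), the TRAF3IP3 call without NB4 shNS replicate 2 (0.053) or shM14 replicate 2 (0.072), and the TRAF5 call without shM14 replicate 2 (0.068). In MM6 none of 20 passed with limma or voom (3 at an unadjusted p under 0.05), with a median of 0.09. There the log2 change was 0.74 for TRAF3IP3 (limma adjusted p = 0.16), 0.34 for MAP3K14, the kinase NIK of the alternative NF-kappaB route (limma adjusted p = 0.33), and 0.58 for REL (limma adjusted p = 0.33). MAP3K14 stood at 0.833 and 0.847 RPKM in MM6 shNS and 1.42 and 1.24 in MM6 shM14. It passed the filter only through the shM14 libraries and so had to differ.

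**Figure D4:**
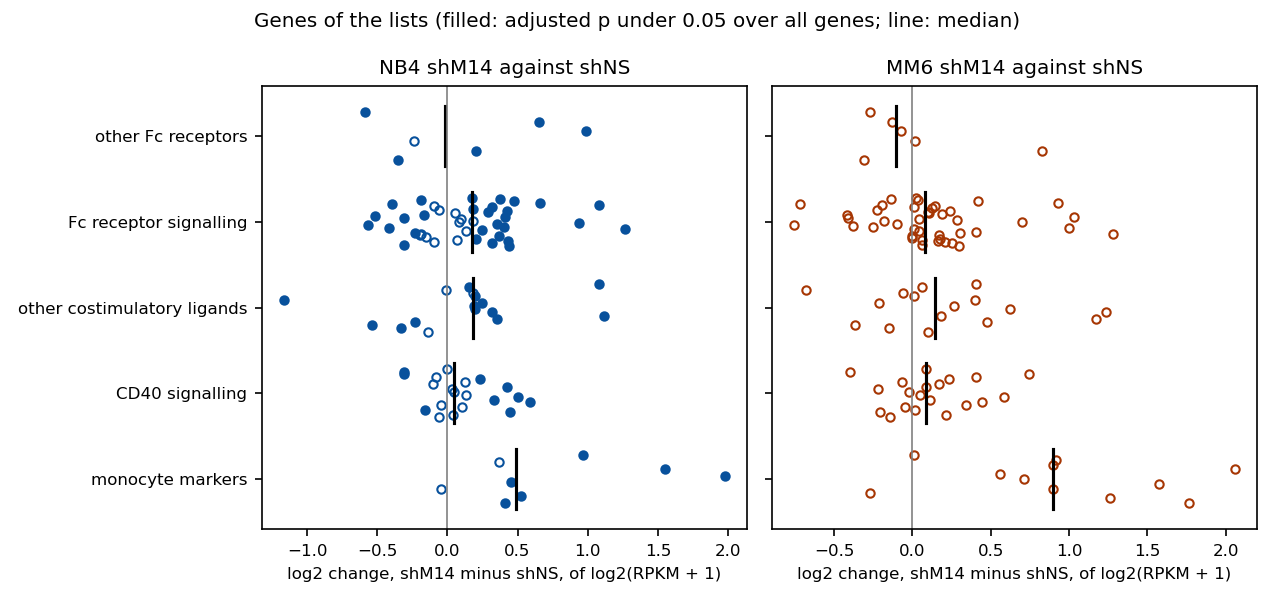
Log2 change, shM14 minus shNS, of the tested genes of 4 pathway lists and of the monocyte markers in NB4 (left) and MM6 (right); each circle is a gene, filled where the adjusted p over all genes is under 0.05, and black lines are medians. The Fc receptor signalling median is 0.18 in NB4 and 0.08 in MM6, the monocyte marker medians are 0.49 and 0.90, and no gene of these lists is filled in MM6. Genes that passed the filter only through the shM14 libraries are included.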

How the data were processed

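Poly(A) RNA was read as single-end 50 bp reads after a directional kit, per the labels; for the aligner, counter, strand setting and genome build nothing is stated (not given in the sources used here). For each line the authors deposited a table of RPKM values per library, with group means of scaled reads (a signal value), a fold change ratio, its log2 and p-values; the RPKM unit was inferred from the values, 100% of which resolved into whole reads within a tolerance of 0.01. The listed genes without a symbol number 27.

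Genes with at least 1 RPKM in 2 libraries of a fit were tested with limma 3.58.1 in R 4.3.3 on log2(RPKM + 1), with Benjamini-Hochberg adjustment over all genes tested and a threshold of 0.05, after a test of the code on simulated data. SE is the moderated standard error. Each line was fitted alone; the common change, its difference between lines and the control groups were fitted over 8, 8 and 4 libraries. Named genes are METTL14, the 9 genes, up to 3 of each list with the smallest p in each line and those that small counts refer to; some genes that met this rule are not reported here. The genes and lists were chosen with earlier results of these data known. Alternatives were a pseudocount of 0.1, no filter, 5 RPKM, median-of-ratios scaling, a replicate block, a variance trend, 1 model of all 8 libraries, voom and leaving out each library; voom without a filter was chosen after seeing the data. Python 3.11.15 with pandas 2.3.3, numpy 2.4.6, matplotlib 3.10.9 and scipy 1.17.1 produced the tables and plots.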

Additional observations from a re-analysis of the deposited data

Results flagged for a closer look

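The response to the METTL14 hairpin differed between the lines, by the interaction term of limma over all 8 libraries, for FCGRT and for 4 genes of the followed pathways. For FCGRT the response of MM6 minus that of NB4 was 0.60 on the log2 scale (limma adjusted p = 0.047), from -0.41 in NB4 and 0.18 in MM6. SRC differed by -1.27 (limma adjusted p = 0.025), from 1.08 in NB4 and -0.19 in MM6. FCRLA differed by -1.12 (limma adjusted p = 0.031), from 0.99 in NB4 and -0.13 in MM6. CD70 differed by 1.04 (limma adjusted p = 0.031), from 0.19 in NB4 and 1.24 in MM6. TRAF3IP3 differed by 1.05 (limma adjusted p = 0.038), from -0.31 in NB4 and 0.74 in MM6. None of these 5 passed when any single NB4 library was left out (adjusted p 0.12 to 0.25). Groups of 2 libraries are too small to test for a library far from the others.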

How the results depend on the processing

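For the 9 genes, 430 of their values kept direction and side of the threshold, 17 lost and 15 gained a call, and 5 changed sign. Genes under the filter had no main test and were counted here as not called. The 15 thus include CD80 in NB4 and between the control groups, which passed in the fits without a filter. The NB4 count of genes called, 5460, was 1769 in the model of all 8 libraries and 3049 to 4637 without 1 library; the receptors higher there, 5, were 3 with a filter of 5 RPKM, which tests fewer genes, and 3 to 4 without 1 library. The MM6 count, 9 (6 higher, 3 lower), was 0 without a filter, 4 with 5 RPKM, 3 with median-of-ratios scaling (1 higher, 2 lower), 1315 in the model of all 8 libraries, 39 with voom, 37 with voom without a filter, and 5 to 23 without 1 library; the receptors higher in MM6 were 5 in the model of all 8 libraries. The count for the common change was 496 to 1926 without 1 library. The count for the difference between lines, 374, was 203 with a pseudocount of 0.1, 207 with voom, 195 with voom without a filter and 5 to 742 without 1 library; the 1 receptor higher there became 0 with the pseudocount of 0.1, median-of-ratios scaling and both voom fits, and 0 to 1 without 1 library. The control comparison gave 5569 to 8967 without 1 library, with 1 to 2 receptors lower and 2 to 3 higher, FCGR2B leaving the test where a lone NB4 control cannot pass the filter. CD86 likewise left the NB4 test without either NB4 shM14 library, and the control test without either MM6 control. For the other changes the cause was not tested.

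With the replicate number as a block, the MM6 count was 1405 with 5 receptors higher, and the count for the difference between lines was 1143 with 2 receptors higher. The labels do not say that a number marks a pairing, and same-numbered deviations correlated at 0.080 in NB4 and 0.70 in MM6 over 2 pairs each.

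Signs changed only for values that did not pass. With median-of-ratios scaling TNFRSF14 in NB4 was 0.011 and METTL14 between the control groups 0.0267. Without 1 library, TNFRSF14 in NB4 ran from -0.0513 to 0.0374 and MAP3K14 in NB4 from -0.142 to 0.0517. In MM6, SRC ran from -0.387 to 0.0037, LGALS9 from -0.542 to 0.112 and INPP5D from -0.540 to 0.0304. METTL14 between the control groups ran from -0.112 to 0.0478. For the difference between lines, FCGR1A ran from -0.194 to 0.150 and FCGR2B from -0.194 to 0.338. Where a group was left with 1 library, that library was assumed to vary like the others. Depth limits FCGR3A, CD40, CD80 in NB4 and in the MM6 controls, CD86 in the NB4 controls and FCGR2B in MM6, each with fewer than 100 reads per library.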
